A study of Homo sapiens with 9 samples.

Results

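The 7 genes described here, SQLE, MSMO1, NSDHL, TM7SF2, HSD17B7, EBP and DHCR7, encode enzymes of the sterol-specific branch that converts squalene to cholesterol. They were chosen by symbol from the pathway, and each was represented by 1 probeset, so all 7 were measured among the 14884 named genes. RNA levels came from 9 Affymetrix whole-transcript arrays of SMS-KCNR cells, a human line derived from neuroblastoma, a childhood tumour of the sympathetic lineage. Every culture was grown in medium with 10% fetal bovine serum and collected 30 hours after treatment. One group of 3 arrays received the solvent DMSO, another 3 received simvastatin at 5 µM, and the last 3 received that dose of simvastatin together with mevalonate at 2 mM. The comparisons ask which of the 7 RNAs differed with the drug and which of those differences were smaller when mevalonate was supplied. All results are from 1 cell line at 1 dose and 1 time.

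Cells build cholesterol from acetyl-CoA. HMG-CoA reductase makes mevalonate, which is converted to farnesyl diphosphate, and there the route divides between isoprenoids, used to prenylate proteins, and squalene, which is committed to sterols. Simvastatin inhibits HMG-CoA reductase, and added mevalonate enters the pathway after that block. When sterol in the endoplasmic reticulum is low, SREBP-2 is cleaved and carried to the nucleus, where it switches on genes of the pathway together with NF-Y and Sp1. SQLE, squalene epoxidase, adds the first oxygen and is a control point of the branch. After lanosterol is formed and its C14 methyl group removed, TM7SF2 reduces the C14 double bond. MSMO1, NSDHL and HSD17B7 act in turn to remove the methyl groups at C4. EBP shifts the C8 double bond, and DHCR7 carries out the reduction of 7-dehydrocholesterol to cholesterol.

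The DNA before the start sites of 4 of the genes is printed here because these genes rose with the drug and because NF-Y and Sp1 are named partners of SREBP-2. RefSeq promoter windows (GRCh38.p14, 250 bases before to 50 after the start, 300 in all) matched 6 of the 7 genes. SQLE, which also rose, was the gene without a window. Capitals mark the NF-Y box CCAAT and the Sp1 box GGGCGG, searched on both strands, so that ATTGG and CCGCCC are the same boxes on the other strand. The 250 bases before the start, 5′ to 3′ along each gene, are from chr4:165327419-165327668 on the plus strand for MSMO1, chrX:152830813-152831062 on the plus strand for NSDHL, chrX:48521558-48521807 on the plus strand for EBP and chr11:71448394-71448643 on the minus strand for DHCR7.
MSMO1: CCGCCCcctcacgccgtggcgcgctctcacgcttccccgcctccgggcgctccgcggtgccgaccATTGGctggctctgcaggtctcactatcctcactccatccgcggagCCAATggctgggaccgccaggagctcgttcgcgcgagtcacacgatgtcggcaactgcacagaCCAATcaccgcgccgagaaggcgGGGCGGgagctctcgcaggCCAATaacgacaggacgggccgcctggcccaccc
NSDHL: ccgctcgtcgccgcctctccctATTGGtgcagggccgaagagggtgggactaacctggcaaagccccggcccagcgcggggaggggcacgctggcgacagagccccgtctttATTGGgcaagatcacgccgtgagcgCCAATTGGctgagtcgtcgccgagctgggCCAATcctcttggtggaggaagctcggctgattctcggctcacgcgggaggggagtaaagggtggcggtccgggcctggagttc
EBP: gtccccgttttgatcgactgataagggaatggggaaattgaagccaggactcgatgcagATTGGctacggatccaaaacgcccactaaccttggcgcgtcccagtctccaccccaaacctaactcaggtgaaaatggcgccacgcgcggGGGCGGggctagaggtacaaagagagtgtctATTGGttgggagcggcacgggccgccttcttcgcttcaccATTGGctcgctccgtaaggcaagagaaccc
DHCR7: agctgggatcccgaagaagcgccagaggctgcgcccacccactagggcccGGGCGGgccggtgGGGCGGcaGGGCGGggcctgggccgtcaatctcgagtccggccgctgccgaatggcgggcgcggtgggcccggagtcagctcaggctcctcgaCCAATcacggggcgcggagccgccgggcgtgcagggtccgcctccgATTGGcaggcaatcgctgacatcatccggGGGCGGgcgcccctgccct
All 6 windows held CCAAT at least once, against 35.7% of 27305 promoter windows of the same length, 1 per gene, and 36.0% of those of the genes tested here. NSDHL had 5 matches, of which one on each strand overlap, MSMO1 had 4, EBP had 3, DHCR7 and HSD17B7 had 2 each and TM7SF2 had 1. At least 2 matches were present in 11.3% of all windows. GGGCGG was present in 5 of the 6, all but NSDHL, against 44.6% of all windows and 60.5% of the 10749 windows of genes tested here. DHCR7 had 4 matches, as did TM7SF2, a gene that did not pass the test with simvastatin. MSMO1 had 2, and EBP and HSD17B7 had 1 each. The sterol regulatory element TCACNCCAC was in 0 of the 6 and in 1.15% of all windows, and the E-box CACGTG was in 0 of the 6 and in 7.43%. DHCR7 has another listed start, whose window held none of these 4 motifs. A match is a description of letters, and the absence of one says nothing about the factor.

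Simvastatin was followed by higher RNA of 5 of the 7 enzymes. DHCR7 rose most, and its change was the highest of all 14884 genes. MSMO1, SQLE, NSDHL and EBP rose by 0.36 to 0.81 on the log2 scale, TM7SF2 and HSD17B7 did not pass the test, and 0 of the 7 fell. In the fit over all genes (limma, Benjamini-Hochberg adjusted p under 0.05), 5.98% of genes rose and 7.38% fell. The median change of the 7 was 0.40, and that of all genes was 0.00515. Each array measured RNA of a whole culture, so a change in RNA per cell and a change in the share of cells carrying it cannot be told apart.

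SQLE, the epoxidase at the head of the branch, had deposited log2 levels of 9.85, 9.69 and 9.75 on the DMSO arrays, 10.29, 10.28 and 10.26 with simvastatin, and 10.00, 9.97 and 9.98 with simvastatin plus mevalonate. The simvastatin arrays were the highest, those with mevalonate lay between, and the 3 groups did not overlap. SQLE rose by 0.51 ± 0.05 (limma SE; 95% interval 0.41 to 0.62), a 1.43-fold higher level with an adjusted p of 0.000233.

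MSMO1, the C4 methyl oxidase, read 9.42, 9.36 and 9.34 on the DMSO arrays, 10.12, 10.15 and 10.28 with simvastatin, and 9.87, 9.87 and 9.97 with mevalonate added. Here too the 3 groups were separate, and the arrays with mevalonate stood nearer to simvastatin than to DMSO. MSMO1 rose by 0.81 ± 0.05 (95% interval 0.69 to 0.94), or 1.76-fold, with limma's adjusted p of 4.57e-05. NSDHL, the dehydrogenase that follows it in C4 demethylation, read 7.68, 7.80 and 7.91 with DMSO, 8.22, 8.23 and 8.14 with simvastatin, and 7.78, 7.89 and 7.85 with mevalonate added. The simvastatin arrays were above the other 6, which overlapped each other. NSDHL rose by 0.40 ± 0.06 (95% interval 0.26 to 0.55), or 1.32-fold, with an adjusted p of 0.00383.

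HSD17B7, the ketoreductase that completes the C4 step, scattered more than the other members. It read 5.58, 4.96 and 5.20 with DMSO, 5.34, 5.47 and 5.20 with simvastatin, and 5.55, 6.08 and 5.47 with mevalonate added, so that DMSO and simvastatin overlapped. Its within-group SD of 0.273 exceeded that of 96.7% of genes, and its level was near 5.19, the median of all probesets. The difference with simvastatin was 0.09 ± 0.19 (95% interval -0.35 to 0.53), with limma's adjusted p of 0.816. A transcribed pseudogene, HSD17B7P2, has its own probeset, which averaged 5.39 ± 0.13 (SD, n = 3) with DMSO, 5.84 ± 0.11 with simvastatin and 5.85 ± 0.13 with mevalonate added. The pseudogene probeset rose by 0.45 ± 0.09 with simvastatin (limma adjusted p 0.0140). Probe sequences were not used here, so shared hybridization between gene and copy was not tested.

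TM7SF2, the C14 reductase, was also dim. It read 5.28, 5.43 and 5.43 with DMSO, 5.65, 5.54 and 5.47 with simvastatin, and 5.28, 5.40 and 5.51 with mevalonate added. The simvastatin arrays all stood above the DMSO arrays, by a narrow gap for the lowest, and the arrays with mevalonate overlapped both. Its difference of 0.17 ± 0.08 with simvastatin (95% interval -0.00090 to 0.34) had an adjusted p of 0.198 in limma. Of the 7 members, 6 had simvastatin and DMSO arrays that did not overlap, against 28.6% of all genes in either direction.

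EBP, the sterol isomerase, was tight on the DMSO and simvastatin arrays. It read 7.78, 7.79 and 7.82 with DMSO, 8.17, 8.18 and 8.14 with simvastatin, and 7.59, 7.86 and 7.65 with mevalonate added. The simvastatin arrays were highest, and the arrays with mevalonate lay on both sides of the DMSO arrays. EBP rose by 0.36 ± 0.07 (95% interval 0.21 to 0.52), or 1.29-fold, with limma's adjusted p of 0.00833.

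DHCR7, the enzyme that makes cholesterol from 7-dehydrocholesterol and is mutated in Smith-Lemli-Opitz syndrome, read 7.43, 7.17 and 7.22 with DMSO and 9.33, 9.18 and 9.38 with simvastatin. All 3 arrays with mevalonate added carried the identical deposited value, 7.68. That holds for 378 of 16098 named probesets in this group (2.35%), against 359 (2.23%) with DMSO and 215 (1.34%) with simvastatin. The DHCR7 arrays with simvastatin stood far above both other groups, and the 3 groups did not overlap. DHCR7 rose by 2.02 ± 0.08 (95% interval 1.85 to 2.20), a 4.07-fold higher level with limma's adjusted p of 4.77e-06. Its SD was 0.139 with DMSO, 0.101 with simvastatin and 0 with mevalonate added. The fit pools the 3 groups, so the 0 lowers the SE and narrows every interval given for DHCR7. In RefSeq a long non-coding RNA, DHCR7-DT, overlaps DHCR7, and the share of signal from either was not tested.

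**Figure D1:**
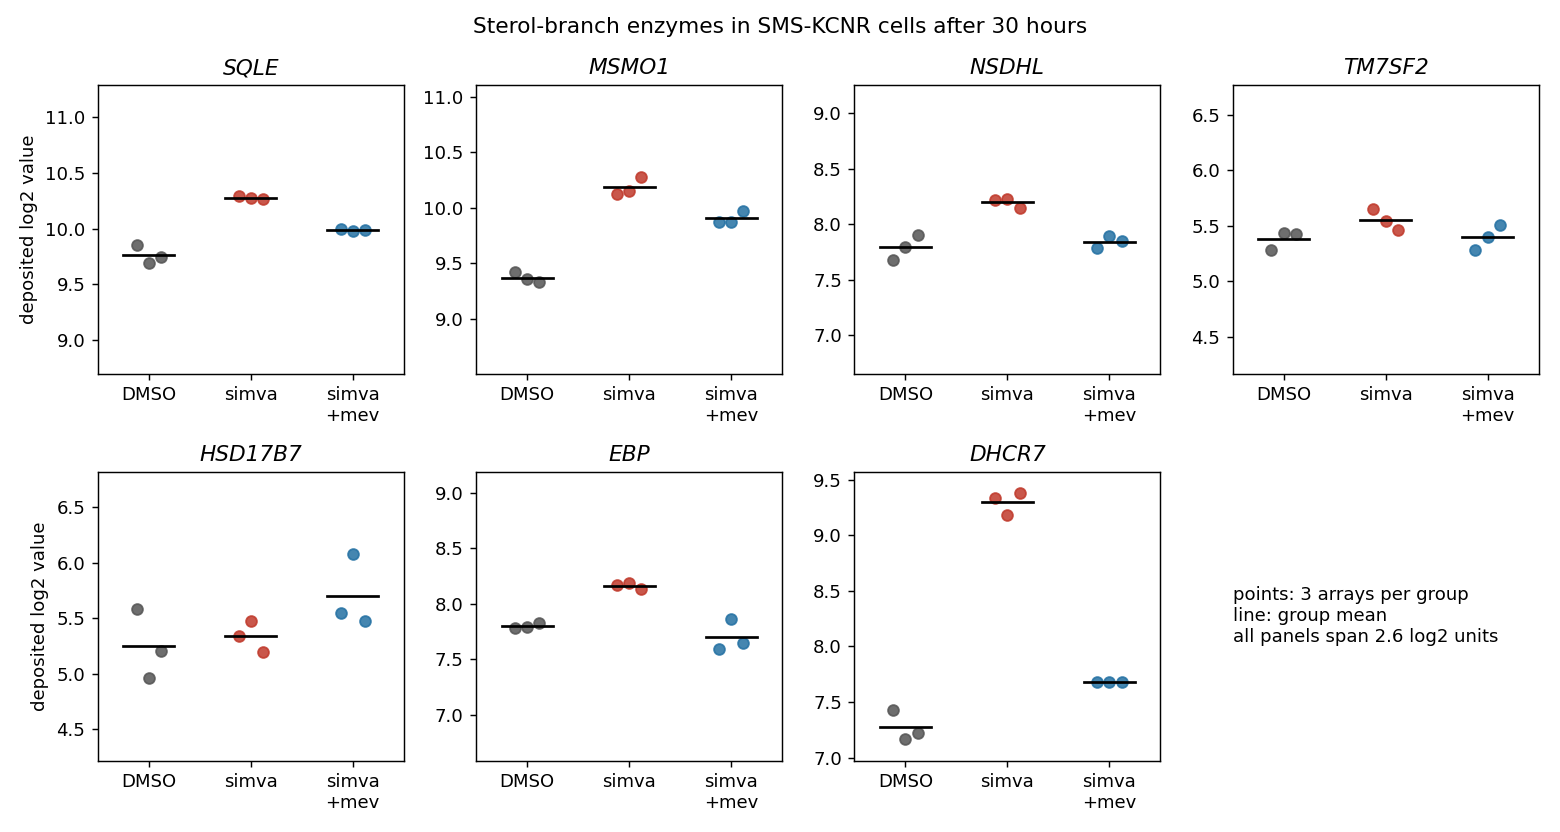
Deposited log2 level of each of the 7 enzymes on each array, 3 arrays per treatment, with the group mean as a line. DHCR7 stands at 9.18 to 9.38 with simvastatin against 7.17 to 7.43 with DMSO, and HSD17B7 shows overlapping groups.

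Adding mevalonate to simvastatin was followed by lower RNA of the same 5 enzymes that had risen. The shared simvastatin arrays enter both comparisons, so the counts are not independent. DHCR7 fell by 1.61 ± 0.08 on the log2 scale (95% interval -1.79 to -1.44), a 3.06-fold lower level with limma's adjusted p of 1.43e-05. EBP fell by 0.46 ± 0.07 (1.38-fold lower, adjusted p 0.00313) and NSDHL by 0.36 ± 0.06 (1.28-fold lower, adjusted p 0.00831). SQLE fell by 0.29 ± 0.05 (1.23-fold lower, adjusted p 0.00519) and MSMO1 by 0.28 ± 0.05 (1.21-fold lower, adjusted p 0.0127). The MSMO1 call was lost without replicate 1 of the mevalonate group (limma adjusted p 0.0510).

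TM7SF2 differed by -0.15 ± 0.08 (95% interval -0.33 to 0.02) with mevalonate against simvastatin alone, limma's adjusted p being 0.261. HSD17B7 stood 0.36 ± 0.19 higher with mevalonate (95% interval -0.07 to 0.80, adjusted p 0.299). Of all genes, 5.72% fell and 5.31% rose in this comparison. Mevalonate and simvastatin arrays did not overlap for 5 of the 7 members, against 27.3% of genes. The median of the 7 was -0.29, and that of all genes 0.00382.

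Set against DMSO, the cells given simvastatin and mevalonate still had higher MSMO1. It stood 0.53 ± 0.05 above DMSO (95% interval 0.41 to 0.66, 1.45-fold, limma adjusted p 0.0183), and was the only member among the 5 genes that rose. The others were ACAT2, HMGCS1, ASNS and PSAT1. That is 0.0336% of all genes, and 0.0403% fell. The MSMO1 call was lost when any 1 DMSO array or any 1 array with mevalonate was left out (limma adjusted p 0.0738 to 0.1155), and kept without any 1 simvastatin array. DHCR7 stood 0.41 ± 0.08 above DMSO (95% interval 0.24 to 0.59) and SQLE 0.22 ± 0.05 (95% interval 0.11 to 0.33), with arrays that did not overlap DMSO. Neither passed the adjustment (limma adjusted p 0.10 and 0.141). The DHCR7 interval is narrowed by the identical values of its 3 arrays with mevalonate. The intervals are for single genes and are not adjusted for the number tested. Arrays of both groups were separate for 3 of the 7 members, against 16.5% of all genes.

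NSDHL, TM7SF2 and EBP lay within 0.10 of their DMSO level on the log2 scale when mevalonate was present. Their differences were 0.05 ± 0.06 (95% interval -0.10 to 0.19), 0.02 ± 0.08 (95% interval -0.16 to 0.19) and -0.10 ± 0.07 (95% interval -0.25 to 0.06), with adjusted p of 0.823, 0.956 and 0.644 in limma. HSD17B7 stood 0.45 ± 0.19 above DMSO (95% interval 0.02 to 0.89), with an adjusted p of 0.433 in limma. These misses do not show that the levels were equal.

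**Figure D2:**
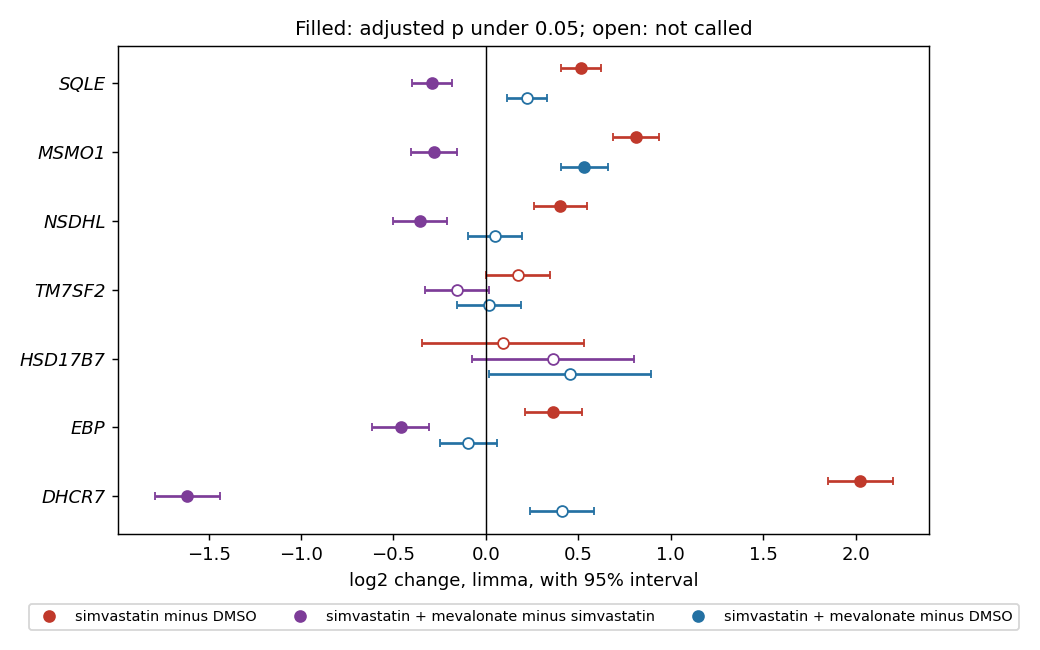
Log2 change of each enzyme in the 3 comparisons, as points with 95% intervals from limma, filled where the adjusted p was under 0.05. DHCR7 changed most, at 2.02 with simvastatin and -1.61 when mevalonate was added.

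For each of the 5 enzymes that rose, the share of the rise left with mevalonate was taken from the group means on the log2 scale. It was the difference between the mevalonate group and DMSO divided by that between simvastatin and DMSO, with a 95% Fieller interval. It is a share of the log2 rise and not of the rise in fold level. MSMO1 kept 65.6% (52.3 to 79.7%) and SQLE 43.1% (24.0 to 61.5%). DHCR7, which had risen most, kept 20.3% (12.1 to 28.0%), an interval narrowed by the identical values of its mevalonate group. NSDHL kept 11.9% (-30.8 to 43.2%) and EBP -26.3% (-98.8 to 13.3%), the negative sign meaning a mean below DMSO. The MSMO1 interval lay above those of DHCR7, NSDHL and EBP. The SQLE and MSMO1 intervals overlapped, as did those of SQLE, DHCR7 and NSDHL in part. The 5 ratios share the same arrays, and differences between them were not tested.

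**Figure D3:**
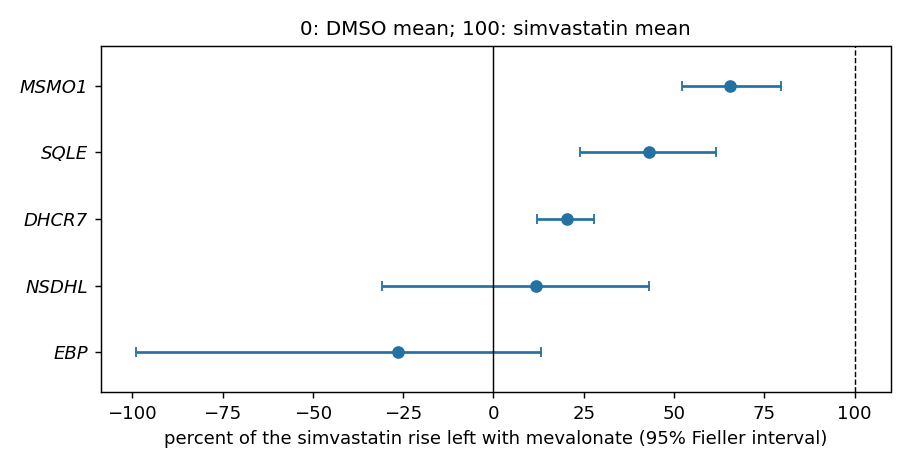
Share of the simvastatin rise on the log2 scale that was left with mevalonate, in percent, for the 5 enzymes that rose. Bars are 95% Fieller intervals from 3 arrays per group. MSMO1 kept 65.6% and EBP -26.3%.

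The other genes of the pathway showed where the 7 enzymes stood. Of 10 genes from acetyl-CoA to farnesyl diphosphate, 8 were measured, and 5 rose and 0 fell with simvastatin, with a median change of 0.49. HMGCS1, which makes HMG-CoA, rose by 1.66 ± 0.05, ACAT2 by 1.40 ± 0.05, MVD by 0.89 ± 0.05 and FDPS by 0.53 ± 0.08. With mevalonate 4 of the 8 fell. The fall of FDPS was lost without simvastatin replicate 1, without replicate 1 or 3 of the mevalonate group, and when only the 2 groups compared were fitted (limma adjusted p up to 0.0828). HMGCS1 and ACAT2 both stayed 0.60 ± 0.05 above DMSO with mevalonate (limma adjusted p 0.0129 and 0.0176), as MSMO1 did. These 2 calls were also lost without any 1 DMSO array or without replicate 1 of the mevalonate group, and that of ACAT2 without its replicate 3 (adjusted p up to 0.0884).

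Of 15 other enzymes and partners of the late branch, 7 were measured, with 2 that rose, 1 that fell and a median of -0.07. The remaining 8 are not analysed here. ERG28, the scaffold that holds the C4 demethylation enzymes together, rose by 0.53 ± 0.04 (limma adjusted p 0.000132) and fell by 0.34 with mevalonate (adjusted p 0.00161). LBR, which also has C14 reductase activity, fell by 0.32 ± 0.05 (adjusted p 0.00212). With mevalonate LBR rose by 0.21 ± 0.05 (limma adjusted p 0.0205), a call lost without simvastatin replicate 2 or 3 or without replicate 1 or 3 of the mevalonate group. CYB5B, an outer mitochondrial cytochrome b5, rose by 0.20 ± 0.05 (adjusted p 0.0353), a call lost in 8 of 17 alternatives, among them leaving out any 1 simvastatin array or DMSO replicate 1 or 3.

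Of 10 genes of SREBP processing, 7 were measured, 3 rose and 0 fell, with a median of 0.12. SREBF2, which encodes SREBP-2, rose by 0.65 ± 0.06 (limma adjusted p 0.000313) and fell by 0.52 with mevalonate (adjusted p 0.00127). INSIG1 and INSIG2, which retain the SREBP complex in the endoplasmic reticulum, rose by 0.55 ± 0.06 and 0.30 ± 0.06. With mevalonate INSIG2 fell, but INSIG1 did not pass (limma adjusted p 0.0514 to 0.332 over 17 alternatives). INSIG1 averaged 7.81 with DMSO, 8.36 with simvastatin and 8.21 with mevalonate added. Of 17 genes of sterol uptake, export and transfer, 8 were measured, 3 rose and 0 fell, with a median of 0.17. They were OSBP at 0.37 ± 0.05, STARD4 at 0.35 ± 0.06 and GRAMD1A at 0.23 ± 0.06, all with roles in moving sterol between membranes. The GRAMD1A call (limma adjusted p 0.0376) was lost in 9 of 17 alternatives, among them median centring and leaving out any 1 DMSO array. With mevalonate against simvastatin alone, 4 of the 8 fell.

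Of 14 genes of oxysterols and steryl esters, 7 were measured and 1 rose, LCAT, at 0.64 ± 0.10 (limma adjusted p 0.00444), with a list median of 0.09. Of 11 ubiquitin ligase genes and partners that act on sterol enzymes, 7 were measured and 0 passed in any comparison, with a median of 0.04 with simvastatin. By limma's unadjusted p under 0.05, 2 of these 7 passed with simvastatin and 0 in either other comparison. The share of all genes under that p was not taken, so these counts cannot be set against it.

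**Figure D4:**
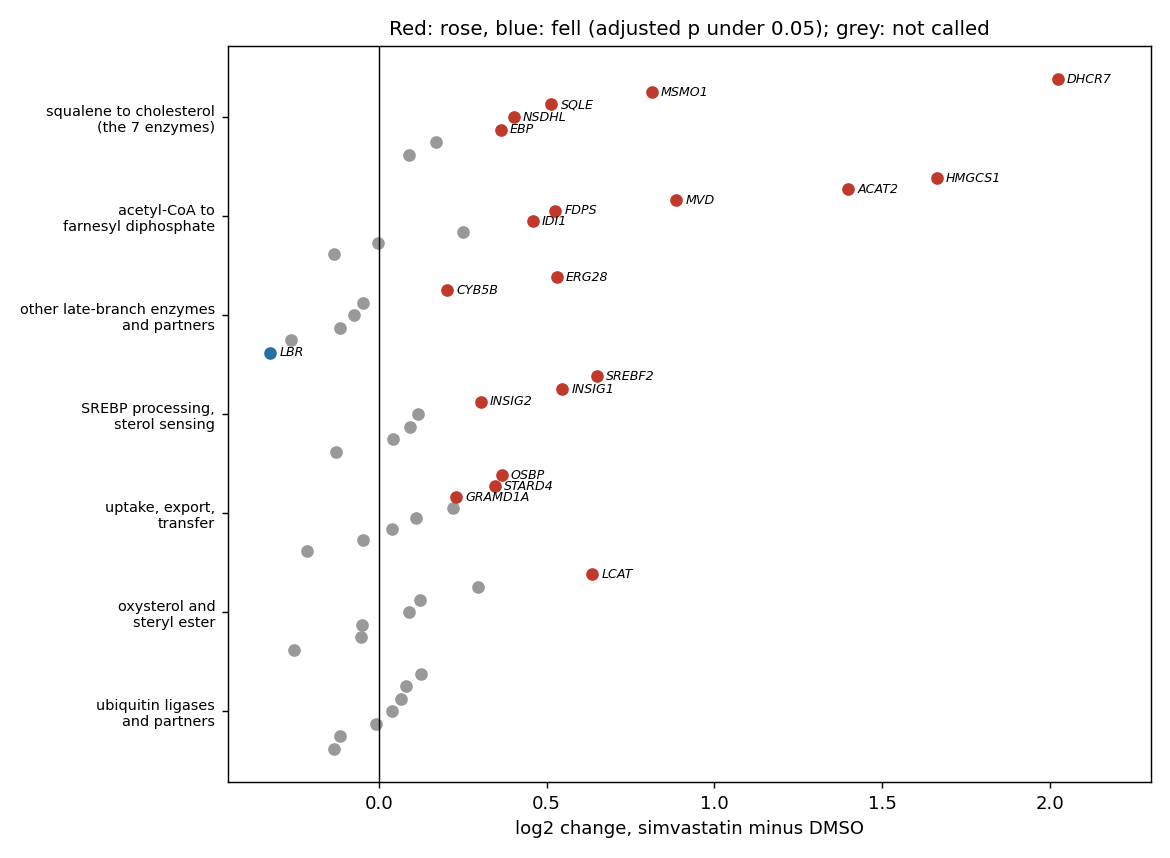
Log2 change with simvastatin of every measured gene of the 7 enzymes and the other pathway lists, coloured where the adjusted p was under 0.05. The 7 enzymes have 5 genes that rose and 0 that fell, and LBR is the gene that fell.

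Across the 9 arrays, the 7 enzymes did not follow one another equally. The Pearson r of a member with the mean of the other 6, over 9 arrays that fall in 3 groups, was 0.977 for SQLE, 0.906 for DHCR7, 0.884 for NSDHL, 0.880 for MSMO1, 0.786 for EBP, 0.627 for TM7SF2 and -0.024 for HSD17B7. Among 3379 other genes with a range of at least 0.5, those closest to the mean of the 7 were ANKRD11 (r = 0.992), ACAT2 (0.988), ASNS (0.987), MAP3K20 (0.987), AARS1 (0.986) and SARS1 (0.986). The mean of the 7 was taken without scaling, so DHCR7, with the largest change, weighs most in it. These values describe arrays that share the 3 treatments. Whether the members moved together within groups was not tested. Deviations of member pairs from their group means correlated at -0.69 (NSDHL and DHCR7) to 0.75 (SQLE and DHCR7). These are the lowest and highest of all member pairs, over only 9 arrays. Both include DHCR7, whose 3 deviations with mevalonate were all 0.

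The series labels call the cells neuroblastoma, and 10 of 12 sympathetic neuroblast markers were measured, all bright, with DMSO means from 9.14 for GATA2 to 10.81 for HAND2. With simvastatin 7 of these 10 fell and 0 rose, and the array means of the list went from 9.86 to 9.89 with DMSO to 9.49 to 9.53 with simvastatin and 9.78 to 9.84 with mevalonate added, where 6 of the 10 rose relative to simvastatin alone. Of 10 mesenchymal markers 6 were measured and 4 fell, with array means of 7.28 to 7.29, 6.76 to 6.89 and 7.14 to 7.18. Of 6 blood and endothelial markers 3 were measured and CD68 rose by 0.48 with simvastatin, with array means of 5.34 to 5.53, 5.56 to 5.73 and 5.48 to 5.60. In the Schwann and glial list (4 of 6 measured) and the hepatocyte and steroidogenic list (3 of 6 measured) 0 passed, with array means of 4.59 to 5.43 over both lists and all groups. By limma's unadjusted p under 0.05, 0 of the glial markers passed with simvastatin and 1 with simvastatin plus mevalonate against DMSO. The share of all genes under that p was not taken. The part of these marker changes in the enzyme results was not tested. Arrays of one group correlated at 0.9941 to 0.9964 and arrays of different groups at 0.99 to 0.9958, and no array stood apart.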

How the data were processed

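Total RNA of SMS-KCNR cells was labelled and hybridized to 9 one-channel arrays, per the labels' protocols. The authors deposited log2 values, 1 per probeset and array. GCRMA and HOMER are listed in the submitters' processing notes with no role or version. The steps and genome build behind them are not given in the sources used here. GCRMA-type normalization makes changes of dim genes uncertain and would hide a shift of all genes. Of 53617 probesets, 16098 (30%) had 1 gene symbol, and the other 37519, with no symbol or more than 1, were left out. For 779 genes with several probesets the brightest was taken, leaving 14884 genes.

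Group means of all 9 arrays were fitted in limma 3.58.1 (R 4.3.3) with 6 residual and 2.39 prior degrees of freedom, and p-values were adjusted over the 14884 genes at a threshold of 0.05. The design text calls the 3 samples per group independent but does not say how they were cultured, so p-values measure the spread between these samples, which may be technical. The labels do not say whether replicate numbers pair the arrays, so the main fit had no block. Deviations of same-numbered arrays correlated at -0.0806 to 0.0505, and those of differently numbered arrays at -0.0397 to 0.0668. No pairing was seen in these values, which does not show that the samples were unpaired. Figures and promoter searches used Python 3.11.15 and pandas 2.3.3, and the fit was tested on simulated data. Text names all 7 members, up to 4 called genes per other list with the largest change, and the 6 genes most like the members. CD68, PSAT1, HSD17B7P2, GATA2 and HAND2 were named after their values were seen. The members and lists were chosen with earlier results of these data known. Alternatives covered normalization, centring, variance model, probeset choice, dim-gene filter, groups fitted, replicate block and leaving out each array, 17 in all. A protein comparison of the members was not made here, since no protein table was used.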

Additional observations from a re-analysis of the deposited data

How the results depend on the processing

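With simvastatin against DMSO, the 5 members that rose kept their calls under all 17 alternatives, with adjusted p up to 0.0320. With mevalonate against simvastatin, SQLE, NSDHL, EBP and DHCR7 did so, and MSMO1 did so in 16. Of 357 alternative values of the 7 members over the 3 comparisons, 341 kept direction and side of the threshold. Only quantile normalization, centring and leaving out an array of a compared group could alter a member's change itself. The other alternatives, among them probeset choice with 1 probeset per member, could alter only its spread and adjusted p. The count therefore overstates how far the changes were tried. Of 55 alternative shares left, 54 kept their sign and lay within the Fieller interval of the main fit. Averaging over probesets, which is among them, could not alter a share. Counts with mevalonate against DMSO depended on the setting. Quantile normalization gave 8 genes that rose. A variance trend with robust estimation gave 70 that rose, 153 that fell and 3 members that rose (DHCR7 and SQLE beside MSMO1, limma adjusted p 0.0150 and 0.0133). Keeping genes above the median signal gave 26 that rose, 79 that fell and 2 members that rose, the other being DHCR7 (limma adjusted p 0.0429). Fitting only the 2 groups compared, or adding the replicate block, gave 0 that rose, 0 that fell and 0 members. MSMO1 then had a limma adjusted p of 0.0765 and 0.0904, as had HMGCS1 and ACAT2. Both settings also ended the fall of FDPS with mevalonate (0.0713 and 0.0717) and the rises of CYB5B (0.0568 and 0.0584) and GRAMD1A (0.0635 and 0.0611) with simvastatin. Leaving out 1 array gave 0 to 6 that rose, 0 to 7 that fell and 0 to 1 members. Against simvastatin alone, 516 to 712 genes rose with mevalonate when 1 array was left out, the lowest without replicate 1 of the mevalonate group.

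Small differences changed sign when 1 array was left out. With mevalonate against DMSO, NSDHL ran from -0.0098 to 0.10, TM7SF2 from -0.039 to 0.074 and OSBP from -0.052 to 0.013. With simvastatin against DMSO, HSD17B7 ran from -0.053 to 0.26, and with mevalonate against simvastatin HSD17B7P2 ran from -0.028 to 0.088. The share left of NSDHL ran from -2.84 to 22.6%. The cause was not tested. The number of arrays, 3 per group, limits the precision, most among the members for HSD17B7.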
